A study of Mus musculus with 2 samples.

Results

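The cyclins, cyclin-dependent kinases (CDKs), CDK inhibitors, E2F and DP factors and pocket proteins drive the cell division cycle, and their transcripts were compared between whole limb buds of Bhlha9 knockout and wild-type mouse embryos. Both groups were of the C57BL/6 strain at embryonic stage E10.5, and each was measured on 1 Affymetrix expression array. Bhlha9 encodes a basic helix-loop-helix factor of the limb bud. The sources used here do not give how the knockout allele was made, nor how many embryos each RNA came from. Members were chosen by gene symbol among probe sets with a single annotated gene, which gave 134 of 45037 non-control probe sets and 57 of 18193 genes. One Cip/Kip inhibitor gene was not used here.

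Each phase of the cycle has its own cyclin and kinase. D cyclins activate Cdk4 and Cdk6 in G1 and phosphorylate the pocket proteins, which frees E2F factors to switch on genes of DNA synthesis. E cyclins with Cdk2 open S phase, and A and B cyclins with Cdk1 carry the cell through G2 and mitosis. INK4 inhibitors block Cdk4 and Cdk6, and Cip/Kip inhibitors bind most cyclin and CDK pairs. Further cyclins and CDKs act on RNA polymerase II. In the early limb bud, proliferating mesenchyme makes up most of the tissue.

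The promoters of several members carry the 2 short elements that mark periodic transcription, and 5 windows with such elements are shown. Each runs from 250 bases before to 50 bases after a RefSeq transcription start in the GRCm38.p6 build, 5′ to 3′ on the gene's strand. Capitals mark the E2F site (TTTCGCGC, TTTCCCGC, TTTGCCGC or TTTGGCGC, on either strand) and the element TTTGAA, called CHR, of genes expressed in G2 and mitosis, also on either strand. No 2 marked elements overlap. Cdk1 is shown because it holds both kinds, and E2f2 and E2f7 as E2F genes with an E2F site, both lower on the knockout array. Ccnb2 and Ccnf are shown as mitotic cyclin genes with CHR elements whose ratios had opposite signs. E2f2 and E2f3 also have both kinds among their windows. The E2f2 window with a CHR element is not shown, nor is E2f3, whose log2 ratio was 0.18.
Cdk1, chr10:69352863-69353162, minus strand: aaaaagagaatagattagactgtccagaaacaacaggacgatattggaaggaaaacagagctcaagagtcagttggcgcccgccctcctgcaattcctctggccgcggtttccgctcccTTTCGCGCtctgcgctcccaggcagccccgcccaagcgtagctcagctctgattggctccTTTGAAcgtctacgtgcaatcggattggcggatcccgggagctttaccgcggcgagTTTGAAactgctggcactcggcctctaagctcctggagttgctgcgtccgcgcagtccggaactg
E2f2, chr4:136172024-136172323, plus strand: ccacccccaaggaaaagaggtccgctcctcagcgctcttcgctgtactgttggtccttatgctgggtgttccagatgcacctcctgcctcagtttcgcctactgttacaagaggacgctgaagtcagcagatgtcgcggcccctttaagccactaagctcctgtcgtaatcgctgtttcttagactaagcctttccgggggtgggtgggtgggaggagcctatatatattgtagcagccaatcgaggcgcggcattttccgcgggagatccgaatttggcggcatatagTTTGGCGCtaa
E2f7, chr10:110745189-110745488, plus strand: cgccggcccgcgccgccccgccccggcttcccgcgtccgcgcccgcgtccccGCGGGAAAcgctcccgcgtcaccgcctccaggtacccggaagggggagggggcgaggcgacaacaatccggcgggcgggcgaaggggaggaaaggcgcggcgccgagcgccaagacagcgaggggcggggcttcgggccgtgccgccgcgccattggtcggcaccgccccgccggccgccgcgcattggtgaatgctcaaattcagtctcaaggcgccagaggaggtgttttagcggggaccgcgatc
Ccnb2, chr9:70421505-70421804, minus strand: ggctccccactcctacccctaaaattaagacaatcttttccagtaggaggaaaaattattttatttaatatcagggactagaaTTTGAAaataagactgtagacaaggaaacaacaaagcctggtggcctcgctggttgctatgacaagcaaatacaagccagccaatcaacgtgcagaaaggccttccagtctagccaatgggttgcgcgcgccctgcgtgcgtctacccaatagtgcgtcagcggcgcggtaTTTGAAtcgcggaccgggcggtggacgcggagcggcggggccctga
Ccnf, chr17:24251360-24251659, minus strand: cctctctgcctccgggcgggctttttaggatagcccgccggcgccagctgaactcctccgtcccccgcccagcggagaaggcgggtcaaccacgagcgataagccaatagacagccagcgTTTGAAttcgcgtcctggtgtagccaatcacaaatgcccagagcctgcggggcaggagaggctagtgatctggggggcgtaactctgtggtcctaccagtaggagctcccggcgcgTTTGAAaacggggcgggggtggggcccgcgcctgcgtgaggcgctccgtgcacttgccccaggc

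Counted from 1 at the 5′ end of its window, the E2F site of Cdk1 began at base 120, and its CHR elements began at bases 180 and 236. In Ccnf the CHR elements began at bases 121 and 237, and in Ccnb2 at bases 84 and 255. Windows were found for 45 of the 57 member genes, among them E2f1, whose window begins at a start inside the annotated gene and is not shown. An E2F site lay in the windows of 8 of these 45 genes (Cdk1, Cdk2, Cdkn2a, E2f2, E2f3, E2f7, Rbl1 and Tfdp1), or 16.7% of their 54 windows, against 2.26% of all 32851 windows of the same length. Without the E2f1 window the share was 17.0% of 53. A CHR element lay in the windows of 11 of the 45, or 20.4% of windows, against 17.9% of all windows. A match is a run of letters and was not measured as a binding site.

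As a whole, the ratios of the machinery between the arrays were about as large as those of other genes. Signals are MAS5 intensities on a linear scale, and a probe set was called detected where it exceeded a floor at the 40th percentile of its array, which was 41.8 on the knockout and 41.2 on the wild-type array. Each gene was read by its probe set with the highest mean signal, and log2 ratios are the knockout value minus the wild-type value. Of the 57 member genes, 53 were detected on at least 1 array and 52 on both, and Ccna1 passed through the wild-type array alone. Ccnb3, Cdk18, Cdkn2a and Cdkn2b were under the floor on both arrays and have no ratio. A difference of 2-fold or more was found for 2 of the 53 genes, E2f1 and Cdk20, both lower on the knockout array, while 6.80% of all 13088 detected genes passed 2-fold. In the lower direction 2.65% of all genes passed, and in the higher direction 4.15%, against 0 members.

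With 1 array per genotype there is no replicate check, no test was possible, and every value describes these 2 arrays. Disagreement between probe sets of one gene, over 5440 genes, corresponded to an SD of 0.28 for 1 log2 ratio, which leaves out differences between embryos and preparations. Of the 52 members detected on both arrays, 24 (46.2%) had ratios smaller than this SD. The share was near this over all genes detected on both arrays, at 44.8%. It was 51.0% over 5886 genes with a mean signal at or above the lower quartile of the members. Ratios of the 52 members ran from -1.13 to 0.85 with a median of 0.08, and 30 were positive and 22 negative. Over all 11491 genes detected on both arrays the median was -0.01. The median size of a ratio, without its sign, was 0.30 over the members, 0.32 over all genes and 0.27 over those 5886 genes.

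Member genes were mostly of moderate or high signal, where ratios spread less. Among 5886 genes with a mean signal at or above the lower quartile of the members, 1.94% passed 2-fold and 13.5% passed 1.5-fold. That quartile was 610, and the signals of E2f1, Cdk20 and Rb1 lay under it, so these genes are not a matched background for them. At 1.5-fold, 8 of the 53 members passed, 4 in each direction, against 23.0% of all detected genes. The higher members were Ccne2, Rb1, Ccng1 and Ccnc, and the lower ones E2f1, Cdk20, Ccnf and Ccnd3. None of the 53 reached 3-fold.

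Ratios of both signs were seen among the G1 cyclins and kinases. Ccnd1, the D cyclin most often tied to growth factor signals, read 3899.7 on the knockout and 5085 on the wild-type array. Ccnd2 read 10092.5 on the knockout and 8046 on the wild-type array, and Ccnd3 read 1636 and 2491 on the same arrays. Ccnd2 was thus higher on the knockout array, whereas Ccnd1 and Ccnd3 were lower there. The direction held in every probe set of Ccnd2 (7 of 7, log2 ratios from 0.21 to 0.71) and of Ccnd1 (3 of 3, from -0.66 to -0.18). For Ccnd3 the brightest probe set gave -0.61 and the 2 dimmer ones, at signals below 100, gave -0.31 and 0.67.

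Their catalytic partners also had ratios of both signs. Cdk4 read 11077.5 on the knockout and 9306 on the wild-type array, a log2 ratio of 0.25. Its 3 probe sets were all positive, the others at 0.10 and 0.11, and all lay within 1 SD of the measurement error. Cdk6 read 1055 on the knockout and 1525 on the wild-type array, a ratio of -0.53, with -0.45 by its other probe set detected on both arrays. Differences between 2 ratios on the same arrays do not depend on how an array is scaled by a constant. The log2 ratio of Ccnd2 exceeded that of Ccnd1 by 0.71 and that of Ccnd3 by 0.93, and Cdk4 exceeded Cdk6 by 0.78. The SD of such a difference from probe set disagreement was 0.40. It does not measure how far apart 2 unrelated genes lie, which was not examined. Smaller gaps among the pairs compared were 0.68 (Rb1 less Rbl1), 0.54 (E2f8 less E2f7) and 0.47 (Ccnt1 less Cdk9). Those of Cdk8 less Ccnc and Ccnh less Cdk7 were -0.35 and 0.17. Larger gaps of other pairs are given below.

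The E cyclins stood further apart from each other than the D cyclins did. Ccne1 read 2755 on the knockout and 3609.6 on the wild-type array, a log2 ratio of -0.39, and -0.19 by its other probe set. Ccne2 read 2504 on the knockout and 1394 on the wild-type array, a ratio of 0.85 from a single probe set and the highest of the members detected on both arrays. The gap between them was 1.23 on the log2 scale. Cdk2, the kinase both of them activate, read 2261 on the knockout and 2314 on the wild-type array, a ratio of -0.03 whose sign turned after median centring.

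None of the cyclins and kinase of G2 and mitosis was higher by 1.5-fold, and Ccnf was lower by 1.79-fold. Ccna2, which acts in S phase and G2, read 5883 on the knockout and 4932 on the wild-type array, and both of its probe sets gave a log2 ratio of 0.25. Ccnb2, a mitotic B cyclin, read 3735 and 3199 on these arrays, a ratio of 0.22, and Cdk1, the mitotic kinase, read 8899 and 6543, a ratio of 0.44. Those of Ccna2 and Ccnb2 lay within 1 SD of the measurement error. Ccnf, whose product is the substrate-binding part of an SCF ubiquitin ligase and does not activate a CDK, read 686 on the knockout and 1227.5 on the wild-type array. Its ratio was -0.84, with -0.40 by its other probe set, and it stood 1.06 below Ccnb2 although both promoter windows carry CHR elements. Ccna1, a cyclin chiefly of the germ line, was under the floor on the knockout array at 7.496. On the wild-type array it was just above the floor at 45.55, so its ratio is only a bound, at least 1.09-fold lower. After median centring the bound moved from a log2 ratio of -0.13 to 0.01, so a lower signal was not shown under that scaling.

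The 5 CDK inhibitor genes detected, of 7 measured, were all within 1.5-fold by their brightest probe sets. Cdkn1b, which holds cells out of the cycle, read 950.01 on the knockout and 706 on the wild-type array, a log2 ratio of 0.43. Cdkn1a, a target of p53, read 222 on the knockout and 181 on the wild-type array, a ratio of 0.30. Its other probe set was far apart, at 174.8 on the knockout and 7.36 on the wild-type array, which is at least 4.24-fold higher against the floor. This second reading was detected on the knockout array alone, so it could only be positive.

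Among INK4 genes, Cdkn2d read 923 on the knockout and 884 on the wild-type array, a ratio of 0.06. Cdkn2c read 133 and 158 on these arrays, a ratio of -0.24. Both lay within 1 SD of the measurement error. Cdkn2a and Cdkn2b, which mark senescence and oncogenic stress, gave 3.32 and 6.88 on the knockout array, and 19.9 and 7.09 on the wild-type array, all under the floor. Cdkn3, a phosphatase that acts on CDKs, read 613 on the knockout and 550.5 on the wild-type array, a ratio of 0.15.

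The activator E2Fs included the member with the lowest ratio. E2f1 read 199 on the knockout and 436 on the wild-type array, 2.19-fold lower, and its other detected probe set read 179 on the knockout and 316 on the wild-type array, a log2 ratio of -0.82. The ratio of the brighter one was -1.13 with the deposited scaling and -0.991 after median centring, -0.997 after quantile and -0.986 after loess normalization, so among these 4 scalings it passed 2-fold only as deposited. E2f2 read 194 on the knockout and 260 on the wild-type array, a ratio of -0.42, and -0.71 by its other probe set. All 4 detected probe sets of E2f1 and E2f2 were thus lower on the knockout array. E2f3 went the other way, at 1712 on the knockout and 1507 on the wild-type array, a ratio of 0.18, and 0.96 by a probe set with signals below 100. The ratio of E2f3 exceeded that of E2f1 by 1.31.

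None of the 5 repressor E2Fs passed 1.5-fold by its brightest probe set, and 2 lay within the measurement error. E2f7, an atypical E2F that damps E2f1 transcription in S phase, read 1235 on the knockout and 1751 on the wild-type array, a log2 ratio of -0.50. Its close relative E2f8 read 698 and 681 on the same arrays, a ratio of 0.04. E2f4 and E2f5, which act with pocket proteins in resting cells, had ratios of 0.50 and 0.32, E2f4 at the low signals of 92.8 on the knockout and 65.7 on the wild-type array and E2f5 at 3465 on the knockout and 2778 on the wild-type array. A dimmer E2f5 probe set read 202 on the knockout and 103 on the wild-type array, a ratio of 0.97. E2f6, which works with Polycomb proteins, read 2211 on the knockout and 2005 on the wild-type array (0.14). Its dimmer probe set gave -0.77, at 116 on the knockout and 198 on the wild-type array.

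Of the pocket proteins, Rb1 stood out. Rb1, the retinoblastoma protein gene, read 606 on the knockout and 345 on the wild-type array, 1.76-fold higher, by the single detected probe set of 2. Rbl1 read 1617 on the knockout and 1468 on the wild-type array, a log2 ratio of 0.14. Rbl2 read 129.7 and 138 on these arrays, a ratio of -0.09 that turned positive under each of the 3 other scalings. DP partners are needed by E2Fs to bind DNA. Tfdp1 read 6555 on the knockout and 6111 on the wild-type array (0.10), and Tfdp2 read 1478 and 1213 on these arrays (0.29). The 4 probe sets of Tfdp2 gave ratios from -0.20 to 0.29, and 3 of them were positive.

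**Figure D1:**
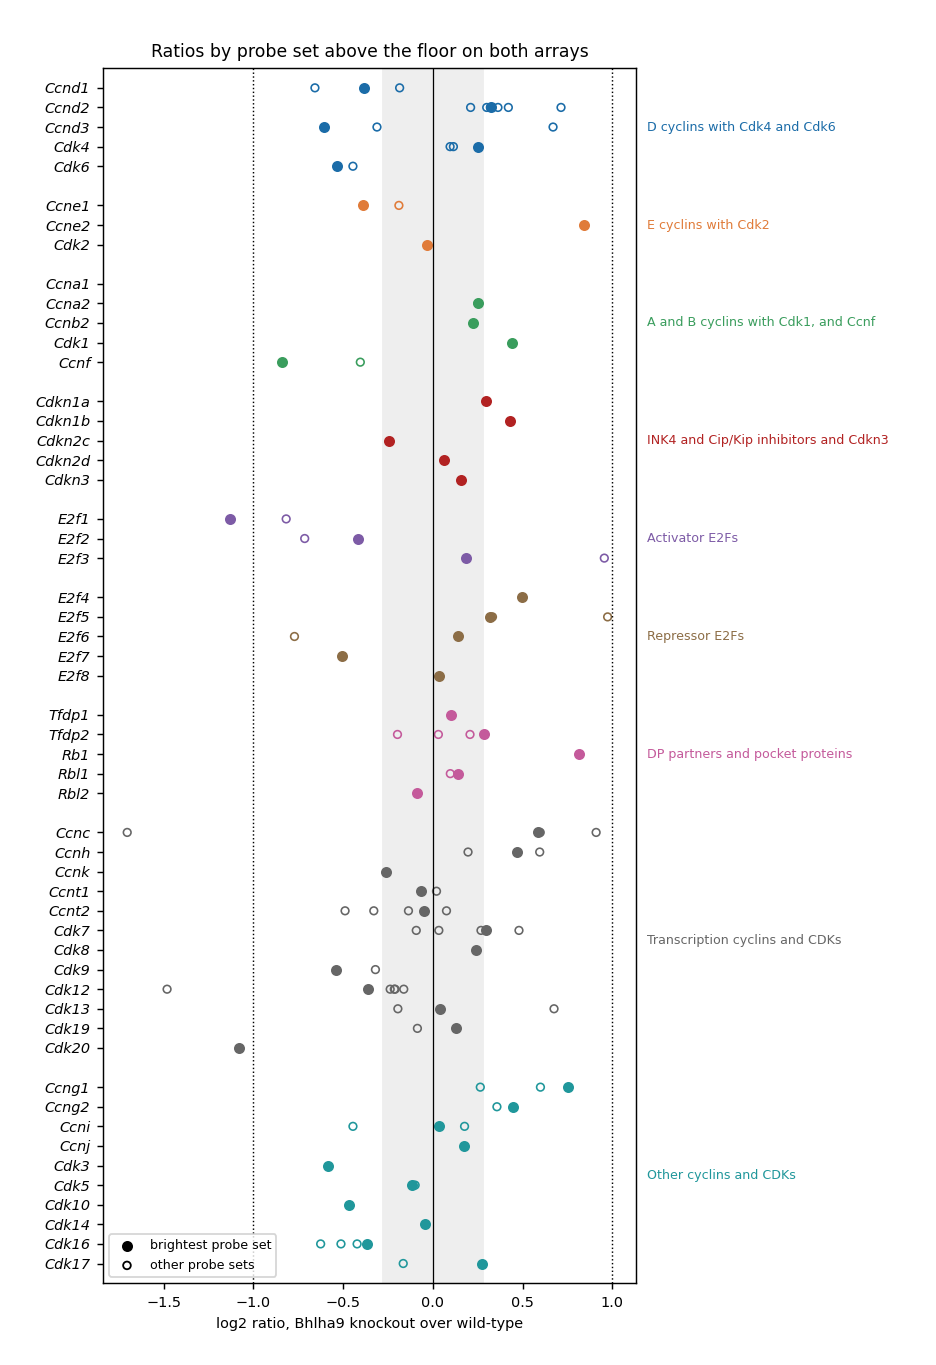
Log2 ratio, knockout over wild-type, of every member probe set detected on both arrays, with a filled point for the brightest probe set of a gene and open points for the others. The grey band is 1 SD of the measurement error (0.28) and dotted lines mark 2-fold. Probe sets of Ccnd2 lie right of zero and those of Ccnd1, Cdk6, E2f1 and E2f2 lie left of it.

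Cyclins and CDKs of transcription showed both directions. The kinase of the general factor TFIIH is Cdk7 with cyclin H, encoded by Ccnh. Ccnh read 5592 on the knockout and 4042 on the wild-type array, a log2 ratio of 0.47 and positive in 3 of 3 probe sets. Cdk7 read 3350.3 and 2729 on these arrays, a ratio of 0.30. The 5 probe sets of Cdk7 gave ratios from -0.09 to 0.48, and 4 of them were positive. In the elongation kinase, Cdk9 read 2964 on the knockout and 4316 on the wild-type array, a ratio of -0.54 and negative in both probe sets. Its cyclins Ccnt1 and Ccnt2 had ratios of -0.07 and -0.05, both turning positive after median centring. Ccnt1 read 2046 on the knockout and 2144 on the wild-type array, and Ccnt2 read 2039.8 and 2111 on these arrays. The 5 probe sets of Ccnt2 gave ratios from -0.49 to 0.08, and 4 of them were negative.

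In the kinase module of Mediator, Ccnc read 1068 on the knockout and 711 on the wild-type array, a log2 ratio of 0.59, and its kinases Cdk8 and Cdk19 had ratios of 0.24 and 0.13. Cdk8 read 4154 on the knockout and 3522 on the wild-type array, and Cdk19 read 539 and 492 on these arrays. The ratios of both kinases lay within the measurement error, and the other Cdk19 probe set gave -0.09. Cdk12 and Cdk13, elongation kinases that pair with Ccnk, had ratios of -0.36 and 0.04, and Ccnk of -0.26. Cdk12 read 829 on the knockout and 1064 on the wild-type array, Cdk13 read 642 and 623 on them, and Ccnk read 229.9 and 275. For Cdk12, 6 of 6 probe sets detected on both arrays were negative. For Cdk13, the other probe sets detected on both arrays gave -0.19 and 0.68. Cdk20 was counted in the same group, although it is described both as an activator of other CDKs and in cilia. It read 45.7 on the knockout and 96.6 on the wild-type array, 2.11-fold lower. The knockout signal of Cdk20 lay just above the floor of 41.8, the value comes from the single probe set of the gene, and its ratio was -0.73 with a pseudocount of 32 in place of the floor and -0.94 after median centring.

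The remaining cyclins and CDKs act outside the core cycle. Ccng1, a p53 target, read 1770.1 on the knockout and 1052 on the wild-type array, a log2 ratio of 0.75 and positive in 3 of 3 probe sets. Ccng2, which rises in cells leaving the cycle, read 2179 on the knockout and 1600 on the wild-type array, a ratio of 0.45 and positive in both probe sets. The G cyclins were thus both higher on the knockout array. Ccni and Ccnj had ratios of 0.04 and 0.17, that of Ccni turning negative after quantile and loess normalization. Ccni read 8026 on the knockout and 7833 on the wild-type array, and Ccnj read 1055 and 936 on these arrays. The other Ccni probe sets detected on both arrays gave 0.18 and -0.45. Cdk16, a kinase of the PCTAIRE group, read 3082 on the knockout and 3967 on the wild-type array, a ratio of -0.36, and was negative in 4 of 4 probe sets. Its relative Cdk17 read 1973 on the knockout and 1635 on the wild-type array, a ratio of 0.27, and -0.16 by its other probe set. Cdk5, the neuronal CDK, read 456 on the knockout and 494 on the wild-type array, a ratio of -0.11. Cdk3, Cdk10 and Cdk14 had ratios of -0.58, -0.47 and -0.04, those of Cdk5 and Cdk14 turning positive under each of the 3 other scalings. Cdk3 and Cdk10 read 68.9 and 520.2 on the knockout array, and 103 and 719.7 on the wild-type array. Cdk14 read 872 on the knockout and 898 on the wild-type array. A dimmer Cdk14 probe set, detected on the wild-type array alone, was at least 1.997-fold lower against the floor, and could only be negative.

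**Figure D2:**
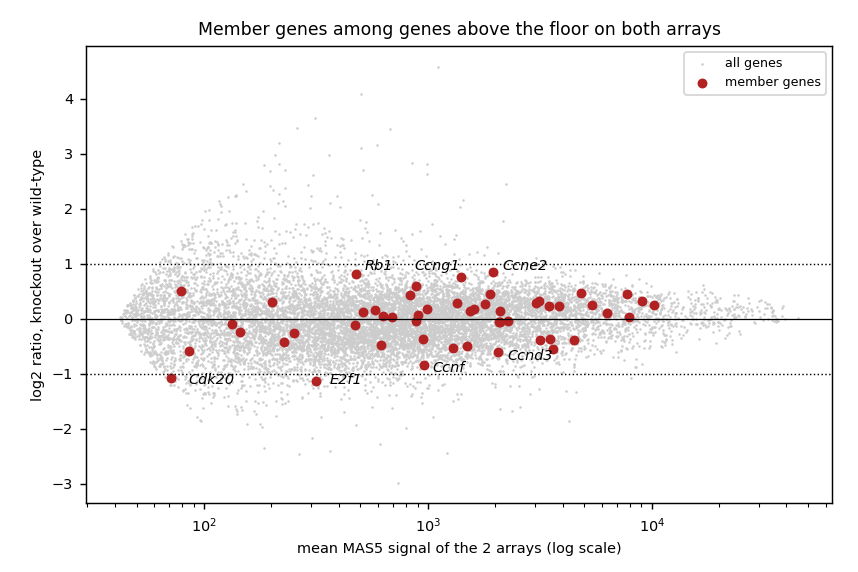
Log2 ratio, knockout over wild-type, against the mean signal of the 2 arrays (log axis) for all 11491 genes detected on both arrays (grey) and the 52 member genes among them (red). Dotted lines mark 2-fold. E2f1 and Cdk20 lie below the lower line, Cdk20 at low signal, and 0 members lie above the upper one.

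Probe sets of one member mostly had the same sign. Of 30 members with 2 or more probe sets detected on both arrays, the brightest pair had the same sign in 25, or 83.3%, against 69.4% of all 5440 such genes. These 5440 genes were not matched to the members by signal. At the level of probe sets, 116 of 134 were detected on at least 1 array and 111 on both. A 2-fold difference was found for 5 of the 116, 1 higher and 4 lower, against 7.73% of all detected probe sets (3.22% higher and 4.51% lower). They were the second Cdkn1a probe set in the higher direction, and E2f1, Cdk20 and a dimmer probe set each of Ccnc and Cdk12 in the lower one.

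Genes that the cycle turns on were read next, from lists chosen by function. Of 41 measured genes of S phase and DNA replication, 0 passed 2-fold, the median log2 ratio was 0.07, and 22 ratios were positive and 19 negative. Over all genes detected on both arrays 49.1% of ratios were positive. Among the 5886 at or above the members' lower quartile of signal 52.8% were positive and 1.94% passed 2-fold, so a count of 0 is near the background. The 4 farthest from zero were Pola1, a subunit of DNA polymerase alpha, at 2584 on the knockout and 1491 on the wild-type array (0.79), the DNA ligase Lig1 at 2547 and 4278 (-0.75), the thymidylate synthase Tyms at 237 and 393 (-0.73) and the chromatin assembly gene Chaf1b at 819 and 1311 (-0.68). E2F sites lay in the promoter windows of 14 of the 34 list genes with a window. The 14 genes with a site had a median ratio of -0.17, and the 19 genes without one that were detected on both arrays had 0.13. Among all genes it was -0.03 over 460 with a site and -0.01 over 8869 without one. The members went the other way, with 0.10 over 7 genes with a site and 0.04 over 33 without one. A part of the site in these ratios was not tested.

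Of 45 mitosis genes, 0 passed 2-fold, the median log2 ratio was 0.15, and 29 ratios (64.4%) were positive and 16 negative, against the same background shares. Foxm1, the factor that drives transcription of mitotic genes, read 246 on the knockout and 457 on the wild-type array, a ratio of -0.89. The mitotic kinase gene Plk1 was at -0.77, the condensin gene Ncapd2 at -0.71 and Ckap2, of spindle microtubules, at 0.64. A CHR element lay in the windows of 29 of the 39 list genes with a window. The median ratio was 0.13 over these 29 and 0.35 over the other 10. Among the members it was 0.04 over 10 genes with the element and 0.004 over 30 without it. After the mean of all detected probe sets was used in place of the brightest, the list's median was -0.05, so its sign depended on the probe sets chosen.

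Another list held regulators of CDKs together with upstream and E2F-linked factors, such as Myc and the MuvB genes. Of its 27 detected genes, 0 passed 2-fold, with a median log2 ratio of 0.10. The share was 6.80% over all detected genes and 1.94% over the 5886 at or above the members' lower quartile of signal. This count is thus also near the background. Mybl2, an E2F target that acts with Foxm1 and the MuvB complex on mitotic genes, read 282 on the knockout and 518 on the wild-type array, a ratio of -0.88. Fzr1, an activator of the anaphase-promoting complex, was at -0.80, the inhibitory Cdk1 kinase gene Pkmyt1 at -0.68, and Mnat1, the assembly factor of the Cdk7 and cyclin H complex, at 0.71. Median centring adds the same 0.14 to every ratio, so under it only the sign of small negative ratios can turn. Among the 52 members detected on both arrays, those whose sign turned under 1 or more scalings (Ccni, Ccnt1, Ccnt2, Cdk2, Cdk5, Cdk14 and Rbl2) all had ratios within 0.12 of zero. Median centring moved the median of all genes detected on both arrays to 0.13, and that of the members to 0.22.

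Most tissue marker lists, blood apart, differed more than the cell cycle genes on the same arrays. Of the 12 limb mesenchyme markers, 11 were detected on the knockout and 12 on the wild-type array. Their summed signal was 20156 on the knockout and 36203 on the wild-type array. At least 2-fold lower were 6 of the 12, against 2.65% of all detected genes. The embryonic liver markers had 9 of 10 measured genes detected on the knockout and 1 on the wild-type array, with summed signals of 32625 and 161, and Ahsg was under the floor on both. All 13 neural markers were detected on the knockout and 7 on the wild-type array, with sums of 5130.1 and 754. On the knockout array alone, 8 liver and 6 neural markers were detected, so their ratios are bounds that could only be positive. The 7 neural markers detected on both arrays had a median log2 ratio of 2.70. Summed signals of the 8 muscle markers were 3811 on the knockout and 2079 on the wild-type array, of the 8 ectoderm markers 9121 and 5636, and of the 7 measured blood markers 90795 and 85317. The 6 endothelial markers summed to 3785 on the knockout and 4716 on the wild-type array, with a median log2 ratio of -0.70. Kdr was 2.12-fold lower among them, and Emcn was at 0.44. Blood markers had a median of 0.17 over 6 detected genes. The part of these tissues in the ratios of the cell cycle genes was not tested, and in whole limb buds fewer cells of a type and less RNA per cell cannot be told apart. The Bhlha9 probe set read 1.70 on the knockout and 7.87 on the wild-type array, both under the floor, and did not check the labels.

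**Figure D3:**
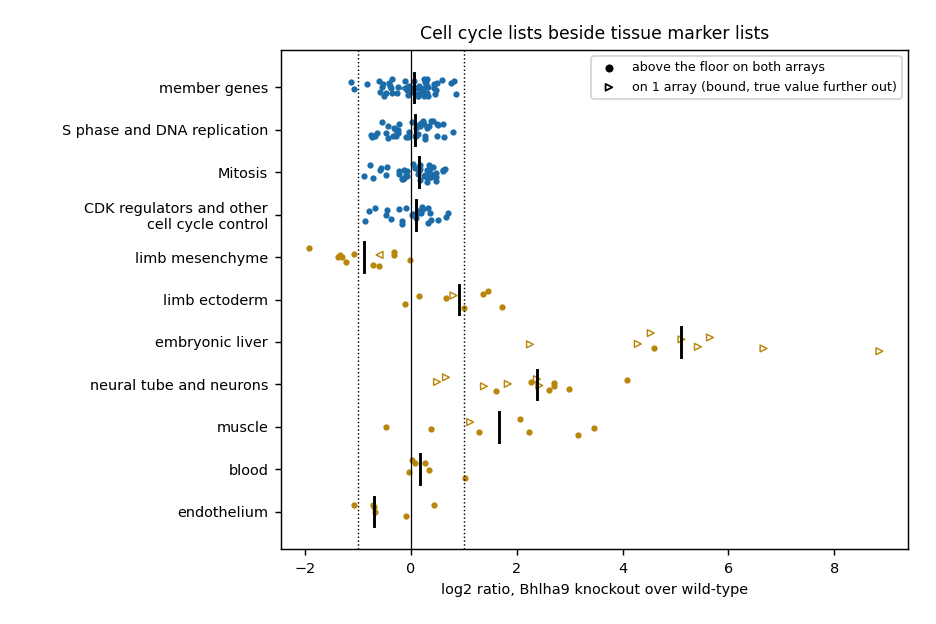
Log2 ratio, knockout over wild-type, of each detected gene in the cell cycle lists (blue) and the tissue marker lists (ochre), with a bar at each median. Open triangles are genes detected on 1 array only, drawn at their bound, and dotted lines mark 2-fold. The cell cycle lists centre near zero, with medians from 0.06 to 0.15, while the medians of the marker lists run from -0.89 to 5.11. The median of 5.11, of the liver list, rests mostly on 8 genes detected on the knockout array alone, which could only be positive.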

How the data were processed

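RNA of whole limb buds (200 ng) was labelled with a 3′ IVT kit and hybridised to Affymetrix Mouse Genome arrays, per the labels' protocols. The deposited values are signal intensities on a linear scale, summarised by the authors with MAS5, per the submitters' processing notes, with 1 array per genotype. The 2% trimmed mean was 500.0 on both arrays. The 64 control probe sets of 45101 were left out. Gene symbols came from the platform annotation, and all 134 member probe sets matched RefSeq genes by Entrez identifier. Signals under the 40th percentile of an array were raised to it, each gene was read by its brightest probe set with a single symbol, and 2-fold was the threshold. All detected member genes were named, and from each other list up to 4 genes with the largest ratios. The members and lists were chosen with earlier results of these data known. The ratio steps were tested on simulated data. Alternatives were 3 other scalings, other floors, a pseudocount of 32, other probe set choices and other thresholds. The number of arrays limits the precision, and no test of the genotype was made. Python 3.11.15 with numpy 2.4.6, pandas 2.3.3 and matplotlib 3.10.9, and R 4.3.3 with limma 3.58.1 were used.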

Additional observations from a re-analysis of the deposited data

How the results depend on the processing

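No paired analysis was possible because each genotype has 1 array. The count of 2 member genes past 2-fold, E2f1 and Cdk20, was 0 after median centring and with probe sets without a suffix, and 0 at 3-fold. It was 1 after quantile normalization and after loess (Cdk20), and 1 with a floor set at the 60th percentile or a pseudocount of 32 (E2f1). With the second brightest probe set it was 1 (Cdkn1a, higher), with a 20th percentile floor 5 and at 1.5-fold 8. The mean of probe sets gave 2, Cdkn1a and Cdk20. The members' median of 0.06 became 0.20 after median centring and -0.092 with the second brightest probe set. The S phase median of 0.07 became 0.21 and -0.11 under the same settings. The mitosis median of 0.15 became 0.29 and -0.25 under them, and -0.047 with the mean of probe sets. Counts past 2-fold in the S phase and mitosis lists were 0, except 1 in each (Mcm10 higher, Kif20b lower) with probe sets without a suffix and with the second brightest, and 7 in each at 1.5-fold. Over all genes the count of 890 was 3225 with a 20th percentile floor, 317 with a 60th percentile floor, 458 with the second brightest probe set, 3006 at 1.5-fold and 220 at 3-fold. Higher genes made up 61.0% of these 890, 77.2% after median centring, 71.0% after loess, 50.5% with a 60th percentile floor, 35.2% with the second brightest probe set, 49.0% at 1.5-fold and 79.5% at 3-fold. Counting only genes detected on both arrays, chosen after seeing the data, left 2 members and 618 genes in all. Single-member ratios moved by more than the measurement error in 19 cases, all under another floor, pseudocount or probe set choice. Among these the sign turned for E2f6 (0.14, -0.32 with the mean of probe sets and -0.77 with the second brightest) and Cdk17 (0.27, -0.16 with the second brightest). Members near the floor, such as Cdk20, E2f4 and Ccna1, are the least certain.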

Other observations

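Among members with 2 or more detected probe sets, 4 had probe sets whose log2 ratios lay more than 1 apart, a limit chosen after the values were seen. One probe set of Ccnc read 63.4 on the knockout and 207 on the wild-type array, a log2 ratio of -1.70, while the other 3 detected on both arrays gave 0.59, 0.60 and 0.91. One of Cdk12 read 245 on the knockout and 684 on the wild-type array, a ratio of -1.48, while its other 5 ran from -0.36 to -0.16. The others were Cdkn1a, with ratios of 0.30 and at least 2.09, and Ccnd3, with ratios from -0.61 to 0.67. Which transcript forms these probe sets read was not analysed here.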
